A study of Rattus norvegicus with 23 samples.

Results

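The mitochondrial beta-oxidation enzymes are the 10 genes Cpt1a, Cpt2, Acadvl, Acadl, Acadm, Hadha, Hadhb, Hadh, Decr1 and Eci1. Their probe sets were found by annotation on an array of 31042 probe sets: 15 probe sets named 1 of these genes and no other gene. Each gene was followed through its brightest probe set, by the mean of 23 rat livers. The 10 genes are thus 10 of the 14217 genes that had a probe set of their own. Their probe sets were chosen by mean level, not by change. The list of genes itself, however, was chosen with earlier results of these data known.

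The livers came from male Sprague Dawley rats, 6 to 8 weeks old at the start, that were gavaged for 5 days, fasted overnight and sampled from the left lateral lobe 24 h after the last dose. In the first of 3 in-life studies, 3 rats received alpha-naphthylisothiocyanate (ANIT, a bile duct toxicant) at 100 mg/kg and 3 received corn oil at 5 ml/kg. In the second, 3 rats received acetaminophen (APAP, an analgesic) at 1000 mg/kg and 3 received corn oil at 2 ml/kg, while 3 received diclofenac (DCLF, an anti-inflammatory drug) at 10 mg/kg and 2 received water at 10 ml/kg. In the third, 3 rats received methylenedianiline (MDA, an aromatic diamine toxic to the biliary tree) at 100 mg/kg and 3 received 35% ethanol at 2 ml/kg. No group carried a transgene or a deletion, and a compound was set only against the vehicle given in its own study. All levels are log2 values of array signal, so a difference of 1 is a doubling, and the errors of changes are standard errors. Called here means an adjusted p under 0.05 together with a change of more than 1.5-fold. Every adjusted p comes from limma, a linear model with variances moderated across probe sets, after Benjamini-Hochberg adjustment over all 31042 probe sets.

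Beta-oxidation shortens fatty acids from the carboxyl end and releases acetyl-CoA, which the fasted liver turns into ketone bodies and burns for ATP. Long-chain acyl groups enter the mitochondrion as carnitine esters made by Cpt1a on the outer membrane, the gate that malonyl-CoA inhibits, and are returned to CoA by Cpt2 on the inner membrane. Acyl-CoA dehydrogenases (Acadvl, Acadl and Acadm, named for very long, long and medium chains) then make the first double bond, the trifunctional protein (Hadha and Hadhb) and the hydroxyacyl-CoA dehydrogenase Hadh complete the spiral, and Decr1 and Eci1 deal with the double bonds of unsaturated fatty acids. Many of these genes are textbook targets of PPAR alpha, the nuclear receptor that drives the response of the liver to fasting.

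The regulatory sequence just upstream of the members was read from RefSeq (build GRCr8), which gave a window of 250 bases before a transcript start for 8 of the 10 genes. Acadl and Decr1 had none in the table used. The windows of 4 members are printed because they cover the range of response seen below: Hadh and Eci1, among the members that fell most, Hadha, which shares its promoter with Hadhb, and Acadm, which stayed under the fold threshold. Their positions were chr2:222504447-222504696 (minus strand) for Hadh, chr10:13961000-13961249 (plus) for Eci1, chr6:31907551-31907800 (plus) for Hadha and chr2:245542865-245543114 (minus) for Acadm, each ending at the base before the start of the annotated gene. Capitals mark AGGTCA (the nuclear receptor core site), CCAAT or GGGCGG (the GC box), or their reverse complements.
Hadh: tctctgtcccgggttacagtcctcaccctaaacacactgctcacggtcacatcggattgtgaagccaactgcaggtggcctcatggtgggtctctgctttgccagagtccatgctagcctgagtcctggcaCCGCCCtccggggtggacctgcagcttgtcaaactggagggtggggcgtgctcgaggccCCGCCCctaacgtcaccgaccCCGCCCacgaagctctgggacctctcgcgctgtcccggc
Eci1: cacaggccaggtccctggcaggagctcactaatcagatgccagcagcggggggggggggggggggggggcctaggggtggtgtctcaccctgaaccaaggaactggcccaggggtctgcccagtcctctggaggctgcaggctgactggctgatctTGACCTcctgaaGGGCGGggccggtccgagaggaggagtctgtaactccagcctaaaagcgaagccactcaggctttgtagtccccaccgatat
Hadha: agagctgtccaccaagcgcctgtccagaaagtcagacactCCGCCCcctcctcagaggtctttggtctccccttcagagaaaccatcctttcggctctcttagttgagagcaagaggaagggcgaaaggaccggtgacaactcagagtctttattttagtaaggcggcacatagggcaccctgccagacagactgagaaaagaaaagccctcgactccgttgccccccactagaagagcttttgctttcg
Acadm: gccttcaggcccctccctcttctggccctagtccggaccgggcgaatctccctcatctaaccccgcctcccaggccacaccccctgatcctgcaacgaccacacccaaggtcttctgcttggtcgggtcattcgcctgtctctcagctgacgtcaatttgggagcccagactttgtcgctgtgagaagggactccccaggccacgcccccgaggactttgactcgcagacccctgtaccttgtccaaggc

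Hadh held 3 GC boxes and Eci1 held 1, next to 1 AGGTCA on the minus strand, 94 to 89 bases before the start. The only other AGGTCA among the 8 windows were the 2 of Acadvl, 169 to 164 and 17 to 12 bases before its start. Hadha and Hadhb are transcribed away from each other, and their windows overlapped over 200 bases, from 31907551 to 31907750 on chromosome 6, so that the GC box printed for Hadha was also one of the 2 of Hadhb. Cpt2 held 3 GC boxes, whereas Cpt1a and Acadm held none of the motifs. AGGTCA was present in 13.7% of all 27457 promoter windows of this length, CCAAT in 34.3% and GGGCGG in 32.4%, with both strands searched. A pair of AGGNCA with 1 base between them (AGGTCA is a form of AGGNCA), the layout that PPAR alpha and its partner bind, occurred in 0.353% of all windows and in 0 of the 8 members. A match describes letters, not a binding site, and the windows stand for 1 start per gene. Those of Cpt1a, Cpt2, Acadvl and Hadhb lay wholly or partly inside the annotated bounds of the gene and were not printed.

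The tissue read as liver in every sample, with albumin (Alb) at a log2 level of 14.57 or more. In 3 samples, however, transcripts of secreted hepatocyte proteins stood apart from the rest. Alb was 14.57 in corn oil 5 ml/kg replicate 2, 14.58 in ANIT replicate 1 and 14.97 in ANIT replicate 2, against at least 15.86 in the other 20 samples. The low values, whose cause was not tested, extended to Ttr, Serpina1, Apoh, Ahsg and Rbp4. Those transcripts lay at 14.27 to 14.49 in the 3 samples and at 14.75 or more in the others. The ANIT results below are therefore also given without these 3 samples, a setting chosen after seeing the data, in which the lone ANIT rat was assumed to vary like the rats of the other groups. Within groups, samples correlated at r = 0.987 to 0.995 over all probe sets. The labels gave no array batch.

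**Figure D1:**
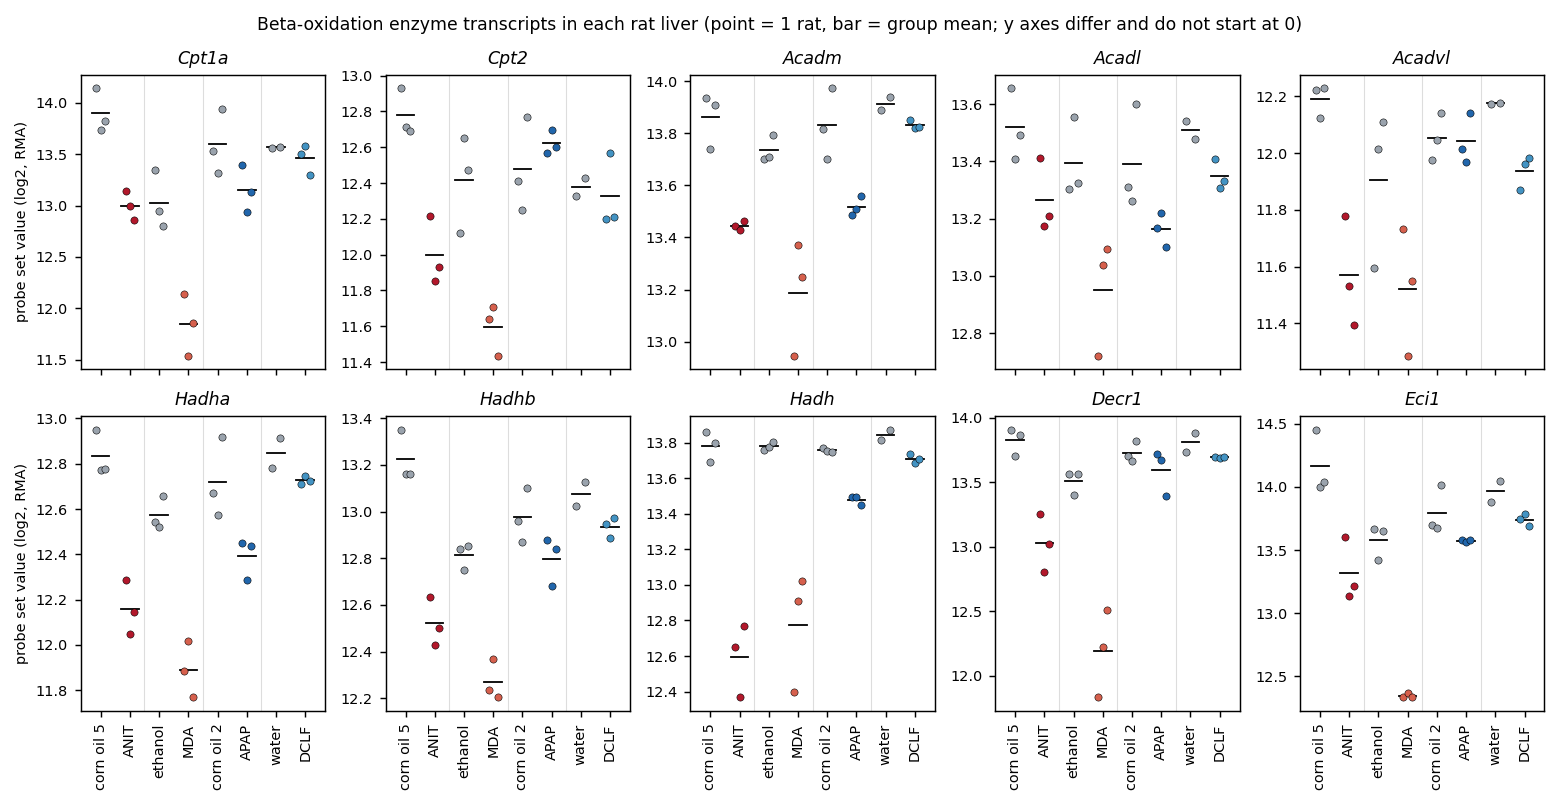
Log2 level (vertical axis) of the 10 members in each of the 23 samples, grouped by treatment along the horizontal axis, with 1 panel per gene, points for samples and bars for group means. ANIT and MDA samples sat below the vehicle samples of their own study for 9 of the 10 genes each, with Acadl overlapping under ANIT and Acadvl under MDA.

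Under ANIT 8 of the 10 members were called lower, and under MDA 6 were. Among all genes, 3.38% were called lower under ANIT and 4.23% under MDA. The median change of the members was -0.74 under ANIT, beside -0.016 over all genes, and -0.75 under MDA, beside 0.002. All 10 members had a negative change under both compounds. Every treated sample lay below every vehicle sample for 9 members under each compound, where this held for 18.8% of all genes under ANIT and 18.4% under MDA. The test of the study's methods does not moderate variances across probe sets. It called 7 members under ANIT and 6 under MDA at an unadjusted p under 0.01. The share of all genes at that threshold is not given here, so these counts have no background beside them. At an adjusted p under 0.05 it called 0 and 1 members, beside 222 and 372 of the 31042 probe sets. In whole liver, fewer hepatocytes and less RNA per hepatocyte cannot be told apart.

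Of the carnitine gate, Cpt1a measured 14.15, 13.74 and 13.82 in the corn oil rats and 13.14, 13.00 and 12.86 in the ANIT rats. The groups did not overlap, and the level fell by 0.90 ± 0.126 (adjusted p = 0.005), to 53.5% of vehicle. In the MDA study Cpt1a was 13.34, 12.95 and 12.80 under ethanol and 12.14, 11.54 and 11.86 under MDA. It fell by 1.18 ± 0.182 (adjusted p = 0.00480), to 44.0% of vehicle, and each MDA rat lay below every other sample of the series. The other Cpt1a probe set was also called, with -0.86 ± 0.131 under ANIT (adjusted p = 0.00721) and -0.69 ± 0.190 under MDA (adjusted p = 0.0482).

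Cpt2, which rebuilds acyl-CoA inside the mitochondrion, was 12.93, 12.71 and 12.69 in the corn oil rats and 12.22, 11.85 and 11.93 under ANIT. The 3 ANIT rats were all lower, with a change of -0.78 ± 0.118 (adjusted p = 0.00685). Under MDA the same probe set was 11.64, 11.71 and 11.44, against 12.12, 12.65 and 12.47 under ethanol. This change of -0.82 ± 0.144 (adjusted p = 0.00852) was called as well, so that both transferases were lower under both compounds.

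The 3 acyl-CoA dehydrogenases had the smallest changes of the members under ANIT. Acadvl, the enzyme of the inner membrane that takes the longest chains, was 12.22, 12.12 and 12.23 under corn oil and 11.78, 11.53 and 11.39 under ANIT. It was called, with -0.62 ± 0.108 (adjusted p = 0.0118), close to the fold threshold. The call was lost without corn oil replicate 1 (-0.61, adjusted p = 0.0556) or replicate 3 (-0.60, adjusted p = 0.0584), and by fold without ANIT replicate 3 (-0.54) or after quantile normalization (-0.56). Under MDA, Acadvl was 11.73, 11.29 and 11.55 against 11.60, 12.01 and 12.11 under ethanol. The first ethanol rat lay below 1 of the MDA rats, and the change of -0.38 ± 0.161 was not called (adjusted p = 0.177).

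Acadm, the medium-chain dehydrogenase, was 13.94, 13.74 and 13.91 under corn oil and 13.45, 13.43 and 13.46 under ANIT. The ANIT rats were tightly grouped and all lower, but the change of -0.42 ± 0.0810 (adjusted p = 0.0182) was a fold of 1.33 and stayed under the threshold. Under MDA, Acadm was 12.95, 13.37 and 13.25 against 13.70, 13.71 and 13.79 under ethanol. The change of -0.55 ± 0.118 (adjusted p = 0.0196) likewise had an adjusted p under 0.05 and a fold of 1.46, and it was called without MDA replicate 2 (-0.64). Acadl, the long-chain enzyme, was 13.66, 13.41 and 13.49 under corn oil and 13.41, 13.17 and 13.21 under ANIT. Here the highest ANIT rat lay just above the lowest corn oil rat, and the change of -0.25 ± 0.101 was not called (adjusted p = 0.176). The change of Acadl under MDA was -0.44 ± 0.124 (adjusted p = 0.0523), with every MDA rat below every ethanol rat.

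Both subunits of the trifunctional protein were lower under ANIT. Hadha, the alpha subunit, was 12.95, 12.77 and 12.78 under corn oil and 12.29, 12.05 and 12.14 under ANIT. The change was -0.67 ± 0.0942 (adjusted p = 0.00505). Hadhb, the beta subunit with the thiolase activity, was 13.35, 13.16 and 13.16 under corn oil and 12.63, 12.43 and 12.50 under ANIT. Its change of -0.70 ± 0.0919 (adjusted p = 0.00382) was almost that of Hadha, the gene with which it shares a promoter. Under MDA the same pair changed by -0.68 ± 0.0955 for Hadha, which was called (adjusted p = 0.00325), and by -0.54 ± 0.0864 for Hadhb, which had an adjusted p of 0.00549 and a fold of 1.46 and was called without MDA replicate 2 (-0.59). Over the mean of all its probe sets, Hadha was not called under MDA (-0.43). Hadha had 2 dimmer probe sets, with means of 8.81 and 8.01 against 12.50 for the one used. The first changed by -1.0 under ANIT and was called, and by -0.52 under MDA, under the fold threshold. The other changed by -0.24 and -0.07 and was called under neither compound.

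Hadh, which oxidises medium- and short-chain hydroxyacyl-CoA, showed the largest change of the 10 under ANIT. It was 13.86, 13.69 and 13.80 in the corn oil rats and 12.65, 12.37 and 12.77 in the ANIT rats. The vehicle rats lay close together, and under ANIT the level went to 43.9% of vehicle, with a change of -1.19 ± 0.115 (adjusted p = 0.00127). Under MDA, Hadh was 12.40, 12.91 and 13.02 against 13.76, 13.78 and 13.80 under ethanol. The change was -1.0 ± 0.154 (adjusted p = 0.00471), with more spread among the MDA rats than among the ethanol rats. A dim second Hadh probe set changed by -0.55 under ANIT (adjusted p = 0.00595, under the fold threshold) and by -0.43 under MDA (adjusted p = 0.121).

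The enzymes for unsaturated fatty acids had the largest changes under MDA. Decr1, the dienoyl-CoA reductase, was 13.57, 13.40 and 13.56 under ethanol and 11.83, 12.22 and 12.51 under MDA. It fell to 40.0% of vehicle, a change of -1.32 ± 0.161 (adjusted p = 0.00190). Under ANIT it was 13.26, 12.81 and 13.03 against 13.91, 13.70 and 13.86 under corn oil. The change of -0.80 ± 0.124 (adjusted p = 0.00779) was called.

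Eci1, the isomerase that moves a misplaced double bond, was 13.67, 13.42 and 13.65 under ethanol and 12.33, 12.37 and 12.34 under MDA. The MDA rats lay closer together than the ethanol rats, and the change of -1.23 ± 0.0946 had the lowest adjusted p of the members (0.000333). In the ANIT study Eci1 was 14.45, 14.00 and 14.04 under corn oil and 13.60, 13.14 and 13.22 under ANIT. The change was -0.85 ± 0.162 (adjusted p = 0.0171), and in both groups replicate 1 was the highest. The call was lost without corn oil replicate 1 (-0.70, adjusted p = 0.0551) or replicate 3 (-0.91, adjusted p = 0.0529), over the mean of all probe sets of the gene (-0.42, under the fold threshold), and by the test of the study's methods at its unadjusted threshold of 0.01. The probe set used for Eci1 is of the type that can share probes with related transcripts, and its other probe set was dim (mean 8.50 against 13.54) and flat, at 0.013 under ANIT and -0.032 under MDA.

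**Figure D2:**
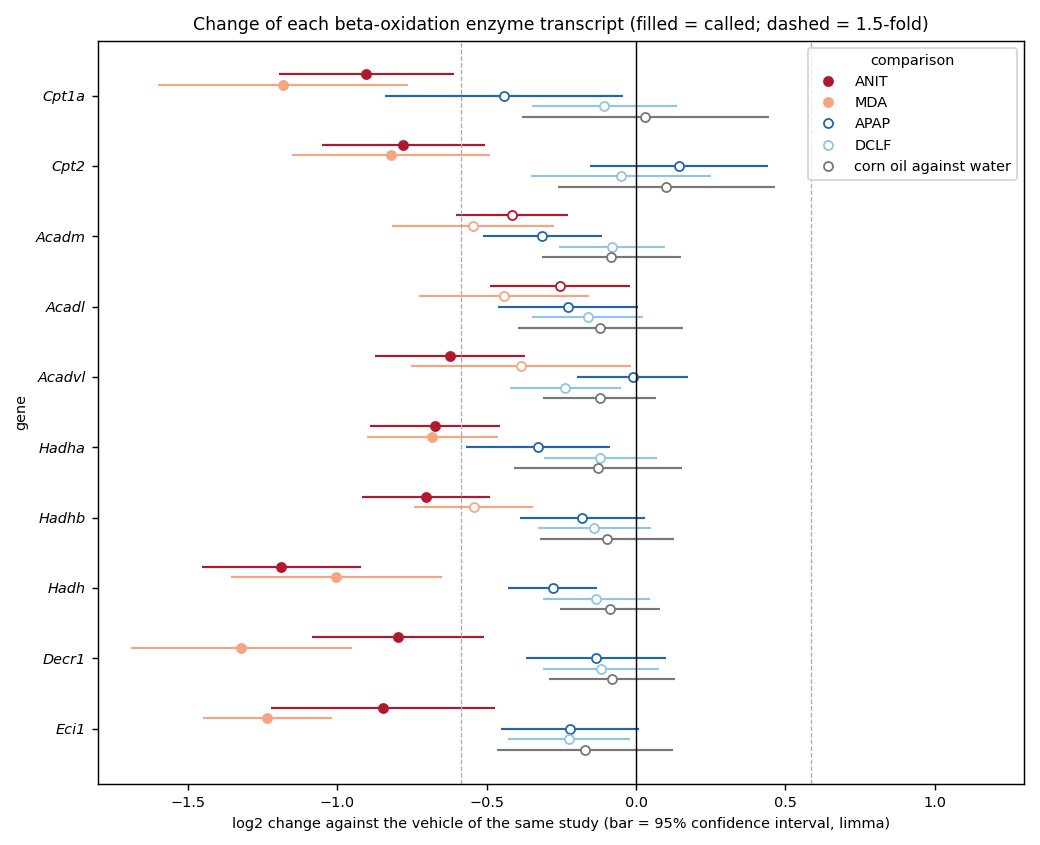
Log2 change against the vehicle of the same study (horizontal axis) of the 10 members (vertical axis) under each compound and for corn oil 2 ml/kg against water, with points for estimates (filled where called), bars for 95% confidence intervals and dashed lines at 1.5-fold. The ANIT points run from -1.19 to -0.25 and the MDA points from -1.32 to -0.38, while the other 3 comparisons lie between -0.44 and 0.14.

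Hepatocyte markers were called lower under MDA alone, but the medians of the list were -0.28 under MDA and -0.34 under ANIT. The list mean spread more in the ANIT study, which holds the 3 samples low in Alb. Its SD was 0.46 under corn oil 5 ml/kg and 0.40 under ANIT, against 0.016 under ethanol and 0.089 under MDA. The part of this spread in the calls was not tested. For the ANIT effect minus the MDA effect, 1 of the 16 markers measured was called higher and 0 lower. The median of that difference was -0.015. The mean of the 16 hepatocyte markers measured ranged from 14.09 to 14.92 under corn oil 5 ml/kg and from 14.09 to 14.82 under ANIT, and from 14.87 to 14.90 under ethanol and 14.47 to 14.62 under MDA. Of those markers 1 was called higher (Tat) and 0 lower under ANIT, with a median of -0.34. Under MDA 0 were higher and 5 lower, with a median of -0.28, among them Cyp2e1 (-1.23, adjusted p = 0.00498) and Rbp4 (-0.84, adjusted p = 0.000899). Under ANIT, Cyp2e1 was at -1.21 (adjusted p = 0.0619). The part of these shifts in the results of the members was not tested. Without the 3 samples low in Alb, which left 1 ANIT rat, the median of the members under ANIT was -0.85. Cpt1a was then at -1.12, Hadh at -1.06, Eci1 at -1.03 and Acadvl at -0.83.

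In some groups, the same rat was the highest or the lowest for most members. Corn oil 5 ml/kg replicate 1 had the highest level of its group for 9 of the 10 members and replicate 2 the lowest for 8. ANIT replicate 1 was highest for 8 and ANIT replicate 2 lowest for 8. Among the DCLF, ethanol and MDA rats, no single rat was highest or lowest for more than 5 members. Against the mean of the corn oil rats, the median difference of the members was -0.56, -0.85 and -0.80 in ANIT replicates 1, 2 and 3. The MDA rats were more alike, at -0.78, -0.66 and -0.78 against the ethanol mean. The gene furthest below vehicle differed between rats under both compounds. Under MDA it was Decr1 (-1.68) in replicate 1, Cpt1a (-1.49) in replicate 2 and Eci1 (-1.24) in replicate 3. Under ANIT it was Hadh in replicates 1 (-1.13) and 2 (-1.42) and Cpt1a (-1.04) in replicate 3.

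Neither acetaminophen nor diclofenac changed a member beyond the thresholds. Under APAP 0 of 10 were called lower, where 0.0844% of all genes were. The median change of the members was -0.22, beside 0.018 over all genes, and 9 of 10 were negative. At an unadjusted p under 0.05 stood 4 members. These were Hadh at -0.28 ± 0.0647 (adjusted p = 0.197), Acadm at -0.31 ± 0.0863 (adjusted p = 0.282), Hadha at -0.33 ± 0.104 (adjusted p = 0.345) and Cpt1a at -0.44 ± 0.173 (adjusted p = 0.440).

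Hadh was 13.49, 13.49 and 13.45 under APAP against 13.77, 13.75 and 13.75 under corn oil 2 ml/kg. The groups were tight and did not overlap. Cpt1a was 13.40, 12.93 and 13.14 under APAP against 13.53, 13.32 and 13.94, and the groups overlapped. Its 95% interval ran from -0.84 to -0.04. The other Cpt1a probe set changed by -0.74 ± 0.259 under APAP, with an interval from -1.34 to -0.14 that holds its own ANIT change, and was not called (adjusted p = 0.388). Cpt2, at 12.57, 12.70 and 12.60 under APAP against 12.41, 12.25 and 12.77, was the only member with a positive change (0.14 ± 0.129). In all, 5 members had every APAP rat below every corn oil rat, as did 7.09% of all genes. The other tests described in the closing section also called 0 members under APAP, DCLF and corn oil against water.

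Under DCLF 0 of 10 members were called by limma, beside 0% of all genes, although 3885 of the 31042 probe sets had an unadjusted p under 0.05. All 10 changes were negative and small, with a median of -0.13 beside -0.033 over all genes. Acadvl was 11.87, 11.96 and 11.98 under DCLF against 12.17 and 12.18 under water (-0.24 ± 0.0789, adjusted p = 0.330). Eci1 was 13.75, 13.79 and 13.69 against 13.88 and 14.05 (-0.22 ± 0.0866, adjusted p = 0.371). These 2 were the only members with an unadjusted p under 0.05. Each DCLF rat lay below both water rats for 8 members, but this held for 20.8% of all genes in a comparison with only 2 controls. The lower bounds of the 95% intervals under DCLF ran from -0.26 for Acadm to -0.43 for Eci1.

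The vehicles of this study were compared as a check on the background of oil against water. Corn oil 2 ml/kg against water called 0 members and 0% of all genes by limma, and 0 members had an unadjusted p under 0.05. The member changes ran from -0.17 for Eci1 to 0.10 for Cpt2, with a median of -0.092 beside -0.028 over all genes. Corn oil 2 ml/kg replicate 3 was the highest of its group for 9 members. These corn oil rats are also the controls of APAP, and the water rats those of DCLF, so the 3 comparisons are not independent.

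Across the groups, the mean of the 10 members was highest under corn oil 5 ml/kg (13.41 ± 0.12, SD, n = 3), followed by water (13.31, n = 2), corn oil 2 ml/kg (13.23 ± 0.15), DCLF (13.17 ± 0.03), ethanol (13.07 ± 0.03), APAP (13.03 ± 0.04), ANIT (12.69 ± 0.14) and MDA (12.26 ± 0.06). Neighbours from corn oil 5 ml/kg down to corn oil 2 ml/kg overlapped in their samples, as did corn oil 2 ml/kg with DCLF and ethanol with APAP. The ANIT samples (12.58 to 12.84) lay below all groups above them and the MDA samples (12.19 to 12.30) below ANIT. The vehicles of different studies cannot be told apart from the studies themselves, so this order was not tested. For Cpt1a the order was different, since the ethanol rats (13.03 ± 0.28) lay at the level of the ANIT rats (13.00 ± 0.14).

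The effects of 2 compounds were then set against each other, each effect being a change from its own vehicle. ANIT and MDA were given at the same dose by weight. Between their effects 0 members were called, where 1.67% of all genes were. The largest difference was that of Decr1, 0.53 ± 0.220, with a 95% interval from 0.05 to 1.0 (adjusted p = 0.365), less lowered under ANIT than under MDA. Eci1 differed by 0.39 ± 0.198 with an interval from -0.04 to 0.82 (adjusted p = 0.511). At the other end stood Acadvl, at -0.24 ± 0.209 with an interval from -0.69 to 0.21. The intervals were wide enough to hold differences of more than 1.5-fold for Cpt1a, Decr1, Eci1, Acadvl and Hadh. Among the lipid genes followed in every comparison, a difference was called for Cyp4a1, a fatty acid omega-hydroxylase (0.72 ± 0.149, adjusted p = 0.0405). The other called was Fasn, the fatty acid synthase (1.90 ± 0.249, adjusted p = 0.00447). Outside these, 1 of 18 genes of fatty acid entry and activation and 1 of 15 of uptake and binding were called. In both the ANIT effect was the higher.

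Between APAP and DCLF, which differed in dose and vehicle, 0 members were called, beside 0.134% of all genes. Their values stand side by side: Hadh -0.28 and -0.13, Acadm -0.31 and -0.08, Cpt1a -0.44 and -0.11, Acadvl -0.01 and -0.24. The lowest adjusted p of a difference was 0.426, for Acadvl.

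Between ANIT and APAP, both dissolved in corn oil but in different studies, doses and volumes, 4 members were called lower under ANIT, beside 2.40% of all genes. The difference was -0.92 ± 0.186 for Cpt2 (adjusted p = 0.0140), -0.91 ± 0.133 for Hadh (adjusted p = 0.00212), -0.66 ± 0.168 for Decr1 (adjusted p = 0.0421) and -0.61 ± 0.137 for Acadvl (adjusted p = 0.0238). Hadhb, at -0.52 ± 0.129, had an adjusted p of 0.0364 and stayed under the fold threshold. Acadl and Acadm differed little (-0.03 and -0.10). The Cpt2 and Hadh calls held without any single rat. The Acadvl call was lost without corn oil 5 ml/kg replicate 1 or 3, ANIT replicate 3, corn oil 2 ml/kg replicate 1 or 2, or APAP replicate 3, at -0.61 to -0.52, and by fold after median centring (-0.58) or quantile normalization (-0.54). The Decr1 call held only without ANIT replicate 1 or APAP replicate 3 and was lost without any other rat, at -0.72 to -0.55. Hadhb was called without corn oil 2 ml/kg replicate 3 (-0.59) and Eci1 without ANIT replicate 1 (-0.77) or in a single model over all 8 groups (-0.63). Without the 3 samples low in Alb, which left 1 ANIT rat, the differences were -1.02 for Cpt2, -0.78 for Hadh and -0.82 for Acadvl. Those of Eci1 and Decr1 were then -0.81 and -0.73.

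The rest of the pathway was read from 10 lists of lipid and mitochondrial genes. A list of 17 other enzymes covered mitochondrial beta-oxidation and neighbouring mitochondrial reactions. At least Mecr, Ivd, Pcca, Pccb, Mcee and Mmut belong to the latter, so its counts are not of beta-oxidation alone. Of the 17, 6 were lower and 0 higher under ANIT (median -0.50), and 7 lower and 0 higher under MDA (median -0.54). Ech1, an auxiliary isomerase, changed by -1.29 ± 0.151 under ANIT and -1.03 ± 0.0962 under MDA. Acaa2, the thiolase that closes the spiral for shorter chains, changed by -0.85 ± 0.143 and -0.83 ± 0.170. Acadsb (-0.93 and -1.0) and Mecr (-0.87 and -1.13) were called under both compounds too. No enzyme of this list was called higher, as was the case for the 10 members. Unlike the members, 1 of the 17 had a positive change under each compound (0.23 under ANIT and 0.19 under MDA).

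Entry and activation of fatty acids was mixed. Of 18 genes, 4 were lower and 3 higher under ANIT, and 3 lower and 1 higher under MDA. Slc25a20, the carrier that swaps carnitine for acylcarnitine, changed by -0.69 ± 0.0823 under ANIT and -0.66 ± 0.130 under MDA. Acsl1, the main long-chain acyl-CoA synthetase, changed by -0.74 ± 0.125 and -1.24 ± 0.142. The genes that rose included Acacb, whose product makes the malonyl-CoA that inhibits Cpt1a, with 1.48 ± 0.161 under ANIT and 0.97 ± 0.135 under MDA. Acsl3 (1.47) and Acaca (0.91) rose under ANIT, and Fasn, outside the list, rose by 2.76 ± 0.190 under ANIT and 0.86 ± 0.131 under MDA. Slc22a5, the carnitine importer, fell by 1.16 under ANIT, and Crat, carnitine acetyltransferase, fell by 0.80 under MDA.

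Downstream of the dehydrogenases, Etfb, a subunit of the flavoprotein that takes their electrons, changed by -0.82 ± 0.106 under ANIT and -0.73 ± 0.103 under MDA. It was among 3 of 6 genes of electron transfer that were lower under ANIT and 2 of 6 under MDA. Etfdh, which passes the electrons to ubiquinone, was called under ANIT (-0.59) and not under MDA (-0.34, adjusted p = 0.0350, under the fold threshold). Of 4 genes of ketone body synthesis and export, 3 were lower under each compound. Bdh1, which makes hydroxybutyrate, changed by -1.21 and -0.78, the mitochondrial thiolase Acat1 by -0.99 and -1.01, and the transporter Slc16a1 by -0.86 and -0.59.

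The respiratory chain, which takes up the electrons of beta-oxidation, moved little. Of 26 genes of the chain and ATP synthase, 0 were called under either compound, with medians of -0.044 under ANIT and -0.17 under MDA and no gene below -0.43. Of 15 genes of the citric acid cycle and its entry, 2 were lower under each, Pc (-0.69 and -0.68) and Suclg2 (-0.61 and -0.78). The medians of that list were -0.014 and -0.065 beside -0.74 and -0.75 for the members.

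Transcripts of oxidation outside the mitochondrion were lower in part. Of 14 peroxisomal genes, 5 were lower under ANIT (median -0.53) and 9 under MDA (median -0.73), and 0 were higher. Crot, which makes medium-chain carnitine esters for export to the mitochondrion, changed by -1.68 under ANIT and -1.52 under MDA, Pex11a, which divides peroxisomes, by -1.36 and -1.78, and Ehhadh, the bifunctional enzyme, by -1.55 and -1.0. Of 6 genes of omega oxidation, 3 were lower under ANIT and 4 under MDA, with Cyp4a1 at -0.75 and -1.47. Of 24 regulators and further targets on the PPAR alpha axis, 7 were lower and 1 higher under ANIT, and 5 lower and 2 higher under MDA. Angptl4, an inhibitor of lipoprotein lipase, changed by -1.18 and -1.84, Pdk4, the kinase that spares pyruvate, by -0.74 and -1.62, and the fasting hormone Fgf21 by -1.47 and -0.75. Vnn1, a pantetheinase, was at -0.80 and -1.60, and the mitochondrial deacetylase Sirt3 fell by 0.95 under ANIT. Lpin2, a phosphatidate phosphatase, rose by 1.04 and 0.64. The receptor transcript Ppara itself was at -0.27 under ANIT (adjusted p = 0.173) and -0.16 under MDA (adjusted p = 0.554), and its coactivator Ppargc1a at 0.33 (adjusted p = 0.167) and 0.15 (adjusted p = 0.370), none of them called.

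Fatty acid uptake and binding had members on both sides. Of 15 genes, 3 were higher and 2 lower under ANIT, and 3 higher and 3 lower under MDA. Fabp2, the intestinal fatty acid binding protein, rose by 2.27 under ANIT and by 1.04 under MDA. Fabp1, the liver form, fell by 1.67 under MDA. Plin2, the coat protein of lipid droplets, fell by 0.82 under ANIT and by 0.72 under MDA. Under APAP, DCLF and corn oil against water, 0 genes of any of these lists were called.

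**Figure D3:**
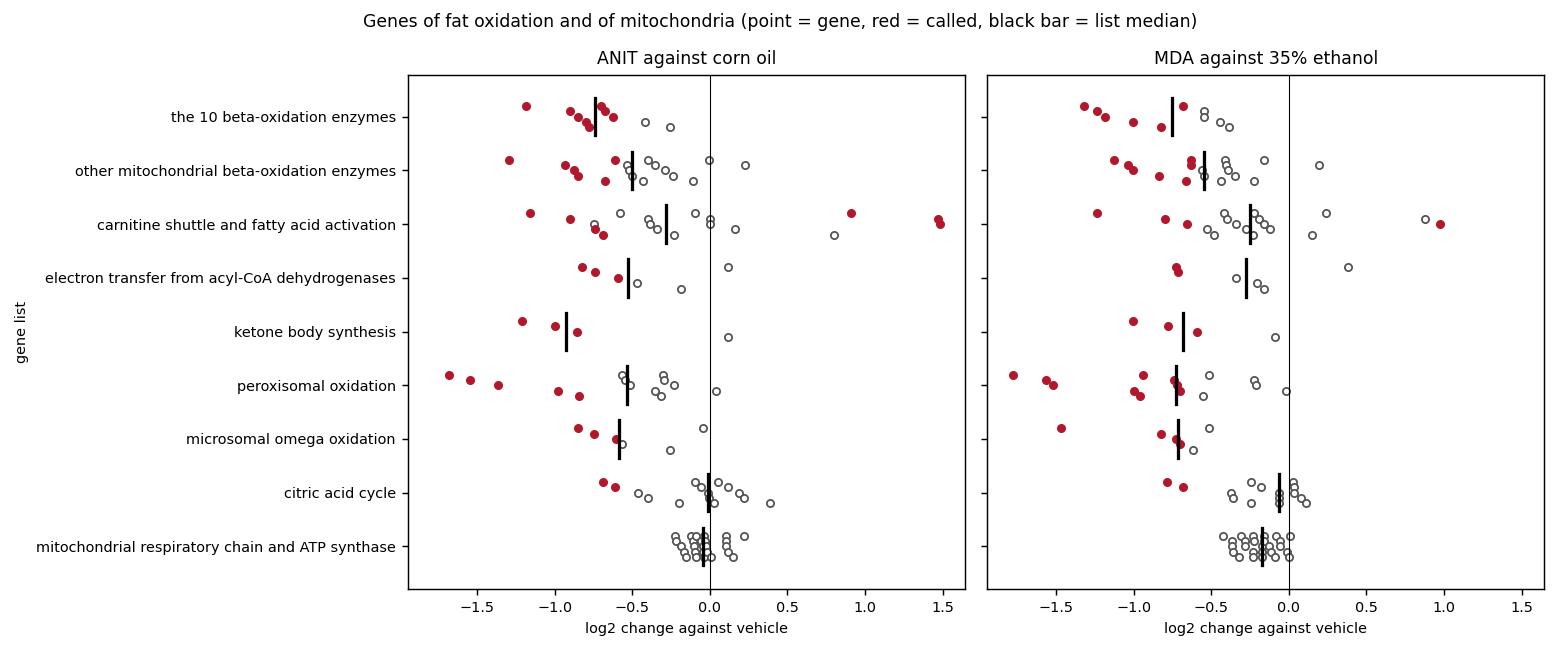
Log2 change against vehicle (horizontal axis) of every measured gene of the members and of 8 companion lists (vertical axis), with 1 panel each for ANIT and MDA, points for genes (red where called) and black bars for list medians. The median of the members lies at -0.74 and -0.75, and that of the respiratory chain at -0.044 and -0.17.

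Markers of other cells moved in the same livers. Under ANIT, 3 of 14 cholangiocyte markers were higher and 0 lower, with Epcam at 2.16, and 7 of 19 stellate cell and fibroblast markers were higher and 1 lower, with Timp1 at 2.35. Of 16 macrophage markers 3 were higher and 1 lower. Of 10 neutrophil markers 1 was higher (Lcn2, 5.36) and 0 lower, with a list median of 0.041 and 4 negative changes. Of 14 lymphocyte markers 0 were higher and 1 lower, and of 10 endothelial markers 0 were higher and 2 lower. Of 11 proliferation genes 10 were higher, with Mki67 at 3.15. Under MDA, 13 of 16 macrophage markers were higher, with Gpnmb at 2.04, along with 4 of 14 cholangiocyte, 9 of 19 stellate (2 lower), 3 of 10 neutrophil, 3 of 14 lymphocyte and 1 of 10 endothelial markers and 3 of 11 proliferation genes. The mean of the macrophage markers ranged from 10.60 to 10.85 under ethanol and from 11.61 to 11.84 under MDA, and from 10.96 to 11.13 under corn oil and 11.09 to 11.43 under ANIT. The cholangiocyte mean ranged from 8.59 to 8.61 under ethanol and 8.96 to 9.19 under MDA, and from 8.40 to 8.47 under corn oil and 8.79 to 9.27 under ANIT. The stellate mean ranged from 9.28 to 9.61 under ethanol and 9.99 to 10.30 under MDA, and from 9.63 to 9.75 under corn oil and 10.09 to 10.46 under ANIT. No defining marker of these cells was at 0, since arrays give a signal to every probe set. The part of these cells in the change of the members was not tested.

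**Figure D4:**
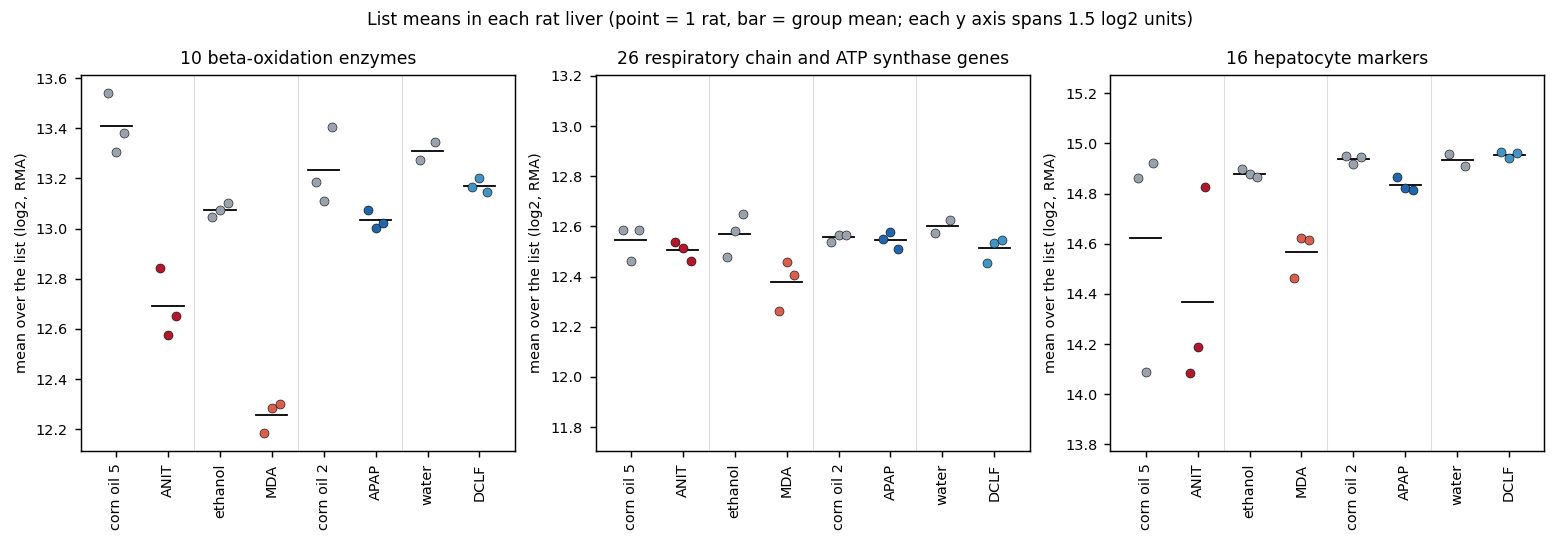
Mean log2 level (vertical axis) of the members, the respiratory chain genes and the hepatocyte markers in each of the 23 samples, grouped by treatment along the horizontal axis, with points for rats and bars for group means. The members' mean lay between 12.19 and 12.84 in the 6 ANIT and MDA samples and between 13.00 and 13.54 in the other 17.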

How the data were processed

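Liver RNA from 23 rats was labelled and hybridised by the authors to Affymetrix rat arrays read in 1 colour. The deposited values are log2 values that the authors made by robust multi-array averaging (RMA) in Array Studio. RMA brings the probe signals of arrays to a common distribution, so a change is relative to the other probe sets. The high end of the scale is compressed. The deposited values did not fully share a distribution, since quantile normalization moved the MDA median of the members from -0.75 to -0.65. The table held 31099 probe sets, of which 57 Affymetrix controls were left out, and 0 missing values. Nothing was added to the log2 values. Depth does not apply to arrays, and the precision rests on 2 or 3 rats per group.

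Groups came from the sample labels. The 3 corn oil 5 ml/kg titles end in the same animal number and begin with different ones, and were read as 3 rats. Of the probe sets tested, 20826 named a single gene, 436 several and 9780 none. Of the single-gene probe sets, 20758 were matched by gene identifier to RefSeq (GRCr8) and 68 were not. The brightest probe set by mean stood for its gene. The 10 members, the companion and marker lists and the tests were chosen with earlier results of these data known.

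limma 3.58.1 in R 4.3.3 was fitted to the groups of each comparison alone (the 4 groups concerned for a difference between effects), with two-sided p-values. Intervals are 95% intervals of the model. The study's methods name a two-sided t-test; with 3 rats a group it was run as an alternative, with an unadjusted p under 0.01 or an adjusted p under 0.05, beside the other alternatives of the closing section. The fit was tested on simulated data. Named genes were all 10 members, up to 4 called genes of each companion list by size of change (up to 3 of each marker list), 12 lipid genes in every comparison, and the 5 genes most like the members. Tables were prepared with Python 3.11.15, pandas 2.3.3 and numpy 2.4.6. Sequencing values were not used here.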

Additional observations from a re-analysis of the deposited data

Results flagged for a closer look

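The effects of ANIT and APAP on 5 members differed by limma at an adjusted p under 0.05. The share of all genes at that cut alone is not given here. With the fold threshold added, 4 members were called lower, beside 2.40% of all genes. The ANIT effect minus the APAP effect was -0.92 for Cpt2, -0.91 for Hadh, -0.66 for Decr1, -0.61 for Acadvl and -0.52 for Hadhb on the log2 scale. Behind these stood changes from vehicle of -0.78 and 0.14 for Cpt2, -1.19 and -0.28 for Hadh, -0.80 and -0.13 for Decr1, -0.62 and -0.01 for Acadvl, and -0.70 and -0.18 for Hadhb, each pair under ANIT and APAP. Cpt2 was higher than the corn oil mean in 3 of 3 APAP rats and lower in 3 of 3 ANIT rats. The compounds came from different studies, doses and corn oil volumes, which cannot be told apart from the compounds. The Decr1 call was lost in 12 of 22 alternatives and the Acadvl call in 9, while the Hadh call was kept in each of the 22 and the Cpt2 call lost in 1.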

How the results depend on the processing

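No paired analysis was possible because treated and vehicle rats were different animals and the replicate numbers only follow sample order. Direction and side of the threshold held in 1282 alternative values of single members, while 44 calls were lost, 10 gained and 44 signs reversed. The t-test of the study's methods with adjusted p called 0 members and 222 probe sets for ANIT, 1 and 372 for MDA, 1 probe set for APAP, 28 for ANIT minus MDA, 0 for APAP minus DCLF, and 1 member and 570 probe sets for ANIT minus APAP. With unadjusted p the probe sets it called numbered 629 in ANIT minus MDA, 245 in APAP minus DCLF, 117 under APAP, 32 under DCLF and 10 between corn oil and water. Without the fold threshold 3050 probe sets were called for ANIT, in place of 1671, and 4023 for MDA, in place of 2179. A single model over all 8 groups called 125 for APAP, 5 for DCLF and 58 for APAP minus DCLF. A variance trend with robust fitting called 11 for DCLF, and leaving out dim probe sets 3 for DCLF and 35 for APAP minus DCLF. The MDA median of the members was -0.65 after quantile normalization and -0.59 over the mean of all probe sets of a gene. Without the 3 samples low in Alb, ANIT minus MDA called 637 probe sets and the ANIT minus APAP median was -0.70. The causes were not tested.

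Leaving out each rat in turn gave 0 to 1 probe set between corn oil and water, 0 to 3 under DCLF, 24 to 81 under APAP, 8 to 27 in APAP minus DCLF, 150 to 381 in ANIT minus MDA, 2 to 5 members for ANIT minus APAP, and medians of -0.83 to -0.68 for MDA and -0.17 to -0.094 for DCLF. Members called ranged from 6 to 8 for both ANIT and MDA.

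Reversed signs were confined to uncalled members. By leaving out rats, the ranges were -0.061 to 0.032 for Acadvl under APAP, -0.17 to 0.013 for Cpt2 under DCLF, -0.14 to 0.17 for Cpt1a and -0.045 to 0.21 for Cpt2 between corn oil and water, -0.077 to 0.19 for Cpt2 and -0.054 to 0.073 for Hadha in ANIT minus MDA, -0.13 to 0.038 for Acadl, -0.094 to 0.022 for Hadhb, -0.092 to 0.083 for Decr1 and -0.078 to 0.11 for Eci1 in APAP minus DCLF, and -0.13 to 0.042 for Acadl in ANIT minus APAP. Quantile normalization turned Cpt2 under DCLF (0.058), Cpt2 (-0.045) and Hadha (-0.037) in ANIT minus MDA, Decr1 (0.0056) in APAP minus DCLF and Acadl (0.065) in ANIT minus APAP. Median centring turned Eci1 (-0.026) in APAP minus DCLF and Acadl (0.0015) in ANIT minus APAP. The mean of all probe sets turned Hadha in ANIT minus MDA (-0.21) and APAP minus DCLF (0.023). Without the 3 samples low in Alb, Cpt2 (-0.060) and Hadha (-0.036) turned in ANIT minus MDA.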

Other observations

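Of all other genes, the 5 whose changes under the 4 compounds lay closest to the median change of the members were Slc25a13, C2cd2, Aspdh, Pcmtd2 and Slc25a20. Their mean absolute differences from the members' medians were 0.032, 0.042, 0.043, 0.048 and 0.052 on the log2 scale. Slc25a13 changed by -0.76 under ANIT, -0.74 under MDA, -0.15 under APAP and -0.11 under DCLF, where the medians of the members were -0.74, -0.75, -0.22 and -0.13. C2cd2 changed by -0.70, -0.85, -0.20 and -0.14, and Aspdh by -0.68, -0.77, -0.15 and -0.14. Pcmtd2 stood at -0.74, -0.75, -0.17 and -0.26, and Slc25a20 at -0.69, -0.66, -0.18 and -0.11. Slc25a20, the carnitine carrier, was the only one of the 5 on a list of the same pathway. The likeness was measured over 4 comparisons and is a description with no test.

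Fasn was at 0.87 ± 0.135 under APAP (adjusted p = 0.0685), the value nearest to a call among the 12 lipid genes followed in every comparison for that compound.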
